A study of Mus musculus with 20 samples.

Results

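The genes described here are 10 mouse genes that are read together when cells leave an epithelial state: the cadherins Cdh1, Cdh2 and Cdh11, the epithelial adhesion molecule Epcam, the transcription factors Snai1, Snai2, Zeb1, Zeb2 and Twist1, and the intermediate filament gene Vim. They were taken by gene symbol from the deposited gene-body tables, where each of the 10 had 1 row among 55421. Their RNA was followed in 20 libraries, 10 from induced presomitic mesoderm (iPSM) colonies and 10 from embryonic stem cells (ESC). In each cell type there were 2 tetO-Clock/Bmal1 clones (numbers 12 and 20 in iPSM, 1 and 7 in ESC), 2 tetO-Clock/Bmal1DN clones (7 and 19 in iPSM, 5 and 6 in ESC) and 1 line whose genotype is labelled control, each sampled once with doxycycline (dox), the drug that switches on a tetO transgene, and once without. DN is the labels' own abbreviation for the second Bmal1 transgene and is not spelled out there. The iPSM colonies were differentiated from E14TG2a cells with a Hes7-promoter luciferase reporter (pHes7-luc), and were given 1000 ng/mL dox for 2 h. The ESC were KY1.1 cells given 500 ng/mL dox for 6 h. Cell type, parental line and reporter therefore changed together and cannot be told apart in a difference between iPSM and ESC, and where dox effects are compared dose and time differ as well. Each clone is a single transgenic line, so a group of 2 is 2 clones. The labels state culture without feeder cells for the E14TG2a lines and say nothing of feeders for KY1.1.

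In the textbook cadherin switch, epithelial cells joined by E-cadherin (Cdh1) and EPCAM lose these proteins and take up N-cadherin (Cdh2) as they become mesenchymal, and vimentin filaments replace part of the keratin network. SNAIL and ZEB proteins bind the sequence CACCTG, called an E2-box, in promoters such as that of Cdh1 and repress them, while TWIST1, a bHLH factor, promotes the same change. Cells at the primitive streak pass through this transition when they become mesoderm, and presomitic mesoderm is the tissue that later buds off somites, in which cells become epithelial again. CLOCK and BMAL1 form a bHLH pair that binds CACGTG, the canonical circadian E-box.

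The cell types carried most of their markers. Over the 10 libraries of each type, 15 presomitic mesoderm markers summed to 957 to 1760 CPM (counts scaled to the size of the library) in iPSM, against 37.7 to 161 in ESC. The 12 ESC markers summed to 249 to 442 in iPSM, against 2080 to 3310 in ESC. Single presomitic markers differed from the sum: Mesp2 had a median of 0.107 CPM in iPSM and 0.628 in ESC, and Lfng overlapped, at 7.34 to 89.4 and 10.8 to 104. The 8 somite markers summed to 5.2 to 23.2 CPM in iPSM and 17.3 to 43.5 in ESC. Library totals ran from 38.2 to 57.3 M counts. Clock reached 349 to 2250 CPM in the 8 transgene libraries with dox, against 30.8 to 105 in the other 12 libraries. Arntl, the gene of BMAL1, reached 828 to 4520 CPM in 7 of these 8 libraries, and 143 CPM in iPSM Clock/Bmal1DN clone 19, against 61.9 CPM in that clone untreated and 18.0 to 72.1 over the 12 libraries. The untreated iPSM control library stood apart, with 69.4% of the table's rows detected, against 43.8% to 54.0% in the other 19. It shared in the scaling and low-count filter of the main fits. Its own level was tested only in the alternative that adds the control lines. It does enter, untested, the ranges over 10 iPSM libraries and the control-line values given below. A list of 15 fibroblast markers summed to 60.4 to 79.3 CPM in iPSM, against 128 to 903 in ESC. Among ESC the sum was 903 in untreated Clock/Bmal1DN clone 6, 471 and 492 in Clock/Bmal1 clone 7 with dox and untreated, and 128 to 215 in the other 7 libraries. Between 11 and 14 of the 15 markers exceeded 1 CPM in each ESC library, led by Col5a1 and Col1a2, and 7 to 10 did in each iPSM library. Pdgfrb, Dcn and Fap had higher medians in iPSM (14.1, 3.52 and 0.141 CPM) than in ESC (5.46, 2.84 and 0.0668). Other marker sums were higher in ESC too. Endothelial markers summed to 13.3 to 25.4 CPM in iPSM and 58.6 to 108 in ESC. Lateral and cardiac mesoderm markers summed to 2.58 to 6.82 and 26.0 to 57.7. Lum had no count in 1 ESC library and Fap in 2. Values over ESC clones 1 and 5 alone, which leave out clones 6 and 7, are given below beside those over 4 ESC clones.

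Promoter letters were available for 5 of the 10 genes (Epcam, Snai1, Zeb2, Twist1 and Vim) in RefSeq's table for mm10, and the 250 bases before the start site were searched for CAGGTG or CACCTG, which are the E2-box on either strand, and for CACGTG, which reads the same on both. The pair shown is from an epithelial gene that was lower in iPSM and a repressor gene that was higher there, and these were the promoters among the 5 that held an E2-box. Capitals mark the E2-box. The Epcam window is chr17:87635729-87635978 and the Snai1 window chr2:167537945-167538194, both on the plus strand.
Epcam: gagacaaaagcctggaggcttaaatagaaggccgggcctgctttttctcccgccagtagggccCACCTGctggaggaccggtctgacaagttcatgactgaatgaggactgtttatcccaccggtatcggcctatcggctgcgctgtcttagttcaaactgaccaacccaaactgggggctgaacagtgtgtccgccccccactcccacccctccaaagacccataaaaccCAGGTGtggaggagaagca
Snai1: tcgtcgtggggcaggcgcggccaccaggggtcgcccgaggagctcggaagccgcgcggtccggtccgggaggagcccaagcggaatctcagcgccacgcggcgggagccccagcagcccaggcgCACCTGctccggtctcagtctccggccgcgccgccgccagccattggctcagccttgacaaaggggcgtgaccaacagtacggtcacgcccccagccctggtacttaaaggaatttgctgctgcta
Epcam held 2 E2-boxes, at 187 to 182 and at 19 to 14 bases before its start, and Snai1 held 1, at 126 to 121 bases before its start. The windows of Zeb2, Twist1 and Vim held none, and none of the 5 windows held CACGTG. RefSeq's starts for Epcam, Snai1 and Twist1 are those of the deposited genes. The Zeb2 start, the nearest of 4 that RefSeq lists, is 47 bases away, so the bases just before the deposited Zeb2 start were not searched in full. The Vim start is 359 bases inside the deposited gene, and the Vim window lies wholly within that gene. No base before the deposited Vim start was searched. Of 32851 promoter windows of the same length in the table, 17.2% held CAGGTG or CACCTG and 6.0% held CACGTG. A match is a match of letters only.

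Untreated iPSM and untreated ESC clones were compared to ask how the 10 genes differed between the cell types. The cadherins did not switch as a pair: Cdh2 was 12.7-fold higher in iPSM, while the difference in Cdh1 missed the threshold. Among the transcription factors Zeb2, Zeb1 and Snai1 rose in iPSM and Twist1 fell. Epcam, Cdh11 and Vim fell too, and the Vim call was lost when untreated ESC clone 6 was left out. In all, 4 of the 10 genes were higher, 4 were lower and 2 did not pass, by edgeR's quasi-likelihood test with Benjamini-Hochberg adjustment and a threshold of 0.05. Of all 26814 genes tested, 60.0% passed, 31.2% higher and 28.8% lower, so a count of 8 in 10 is to be read against a comparison in which most genes differed. The median log2 fold change of the 10 was -0.27, and that of all genes was 0.055. Fold changes are of iPSM over ESC, with n = 4 clones in each. In bulk RNA, fewer cells of a type and less RNA per cell cannot be told apart.

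**Figure D1:**
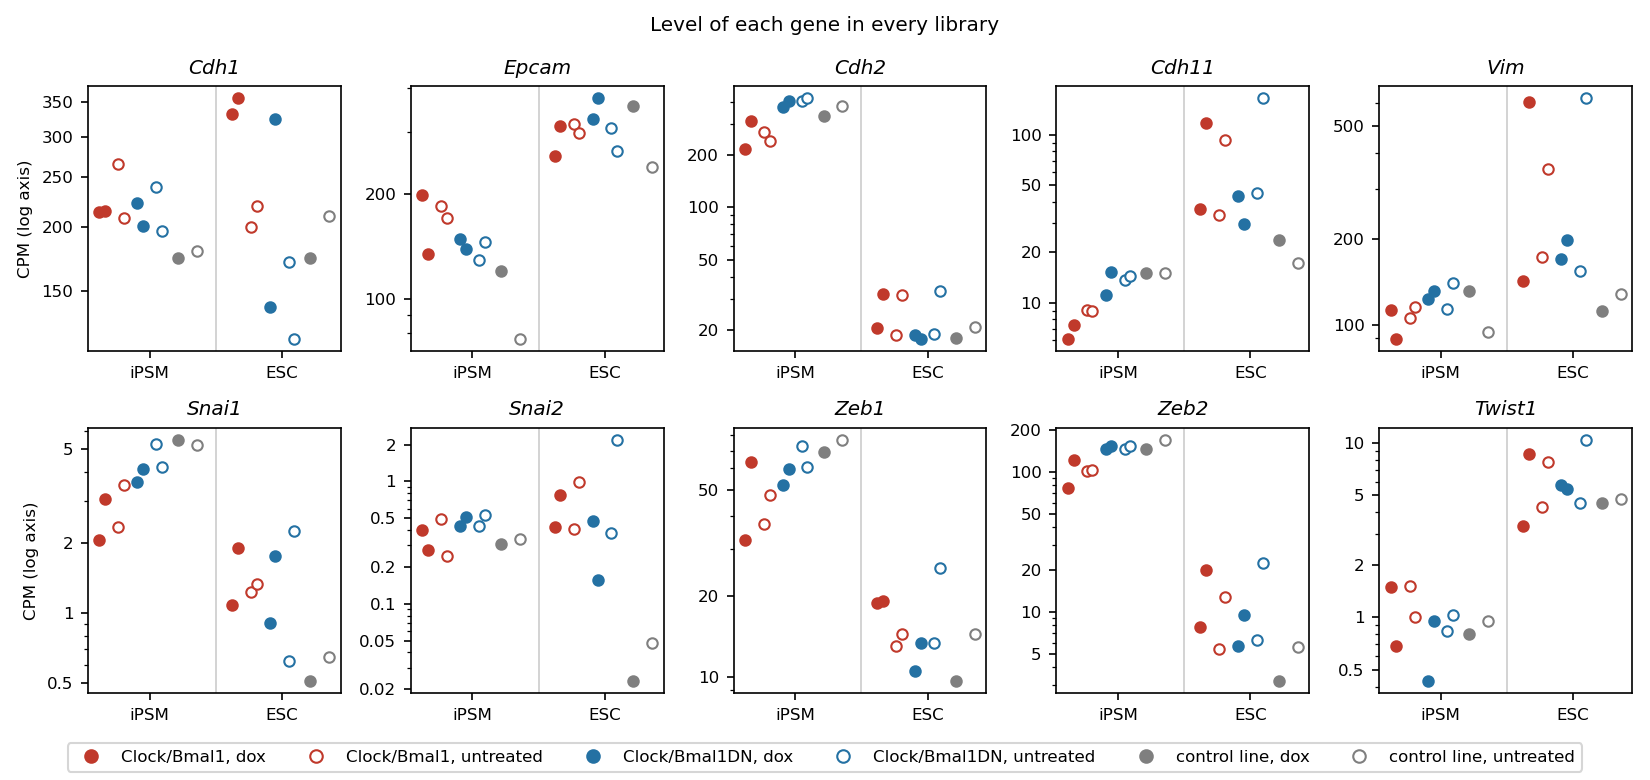
CPM on a log axis in every library for each of the 10 genes, iPSM left and ESC right, coloured by line, with filled points for dox and open points for untreated. Cdh2, Zeb1 and Zeb2 are higher in all 10 iPSM libraries than in any ESC library, Epcam, Cdh11 and Twist1 are lower, and Cdh1, Snai1, Snai2 and Vim overlap. How many of all genes separate in this way was not counted.

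Cdh1 (mm10, as for all coordinates here, chromosome 8, 106603351 to 106670246, plus strand, 16 exons) encodes E-cadherin, the adhesion protein of epithelial adherens junctions. Its level in untreated iPSM was 266 and 208 CPM in Clock/Bmal1 clones 12 and 20 and 239.5 and 196 in Clock/Bmal1DN clones 7 and 19, against 199.7 and 219.8 CPM in ESC Clock/Bmal1 clones 1 and 7 and 171 and 121 in Clock/Bmal1DN clones 5 and 6. The groups overlapped. The means were 227 ± 31.4 in iPSM and 178 ± 43.1 in ESC (SD, n = 4 each), and the log2 fold change was 0.38 ± 0.199 (SE, edgeR adjusted p = 0.114). The control lines, 1 library each, ran the other way, with 179 CPM in iPSM and 210.3 in ESC. Among the dox-treated clones the log2 fold change was -0.41 (edgeR adjusted p = 0.093), so neither direction was called. Over all 10 libraries of each type Cdh1 ranged from 174 to 266 CPM in iPSM and from 121 to 357 in ESC. Cdh1 RNA was thus present in iPSM at a level within the range of ESC.

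Cdh2 (chromosome 18, 16588877 to 16809246, minus strand, 16 exons) encodes N-cadherin, the cadherin of mesoderm and neural tissue. Untreated iPSM clones had 270.1 and 240.2 CPM (Clock/Bmal1 12 and 20) and 407 and 420.5 (Clock/Bmal1DN 7 and 19), against 18.7 and 31.5 CPM in ESC Clock/Bmal1 clones 1 and 7 and 18.9 and 33.3 in Clock/Bmal1DN clones 5 and 6. Every iPSM library, treated or not, lay above every ESC library, at 216 to 420.5 against 17.6 to 33.3 CPM. The log2 fold change was 3.67 ± 0.221, a 12.7-fold difference (edgeR adjusted p = 4.29e-09). Within ESC, the 3 highest libraries were clone 7 with dox, clone 7 untreated and clone 6 untreated, the same 3 that had the highest fibroblast marker sums. With ESC clones 1 and 5 alone the log2 fold change was 4.06.

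Cdh11 (chromosome 8, 102632095 to 102785642, minus strand, 13 exons) encodes cadherin-11, a mesenchymal cadherin first known from osteoblasts. In untreated iPSM clones it stood at 9.08 and 8.97 CPM (Clock/Bmal1 12 and 20) and 13.6 and 14.4 (Clock/Bmal1DN 7 and 19), against 33.5 and 93.8 CPM in ESC Clock/Bmal1 clones 1 and 7 and 44.8 and 166 in Clock/Bmal1DN clones 5 and 6. No library of one type reached the other over all 10, although the ESC control came close, with 17.4 CPM untreated against an iPSM maximum of 15.3. This gave a log2 fold change of -2.86 ± 0.424 (edgeR adjusted p = 3.24e-05). It was -1.84 and still passed with ESC clones 1 and 5 alone, which had 33.5 and 44.8 CPM beside fibroblast marker sums of 180 and 191. Cdh11 and Cdh2, both usually counted as mesenchymal cadherins, thus stood on opposite sides of this comparison.

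Epcam (chromosome 17, 87635979 to 87651106, plus strand, 10 exons) encodes an epithelial adhesion molecule that ESC also carry. Its E2-boxes are in the sequence above. Its values in untreated iPSM clones were 185 and 171 CPM (Clock/Bmal1 12 and 20) and 129 and 145 (Clock/Bmal1DN 7 and 19), against 315 and 298 CPM in ESC Clock/Bmal1 clones 1 and 7 and 308 and 264 in Clock/Bmal1DN clones 5 and 6. The groups did not overlap, and the spread within each was small. The log2 fold change was -0.92 ± 0.129 (edgeR adjusted p = 1.87e-05). Over all 10 libraries of each type the ranges were 76.9 to 198 CPM in iPSM and 238 to 374 in ESC. The lowest iPSM value was that of the untreated control library that stood apart, and without it the iPSM range began at 120.4.

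Vim (chromosome 2, 13573952 to 13582826, plus strand, 9 exons) encodes vimentin, the intermediate filament protein of mesenchymal cells. Untreated iPSM clones had 106 and 116 CPM (Clock/Bmal1 12 and 20) and 114 and 139.8 (Clock/Bmal1DN 7 and 19), against 173 and 352 CPM in ESC Clock/Bmal1 clones 1 and 7 and 154 and 626 in Clock/Bmal1DN clones 5 and 6. The 4 ESC values were all higher, and differed among themselves by more than the gap between the groups. This gave a log2 fold change of -1.43 ± 0.405 (edgeR adjusted p = 0.00648). Without ESC clone 6 it was -0.76, and with ESC clones 1 and 5 alone it was -0.51, and the call was lost in both. Clones 6 and 7 had the highest Vim values of the 4 ESC clones, so a smaller difference without them follows from leaving them out. The part of fibroblast-type RNA in it was not tested. The ESC control line had 112 CPM with dox and 128 untreated, inside the iPSM range of 88.8 to 139.8.

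**Figure D2:**
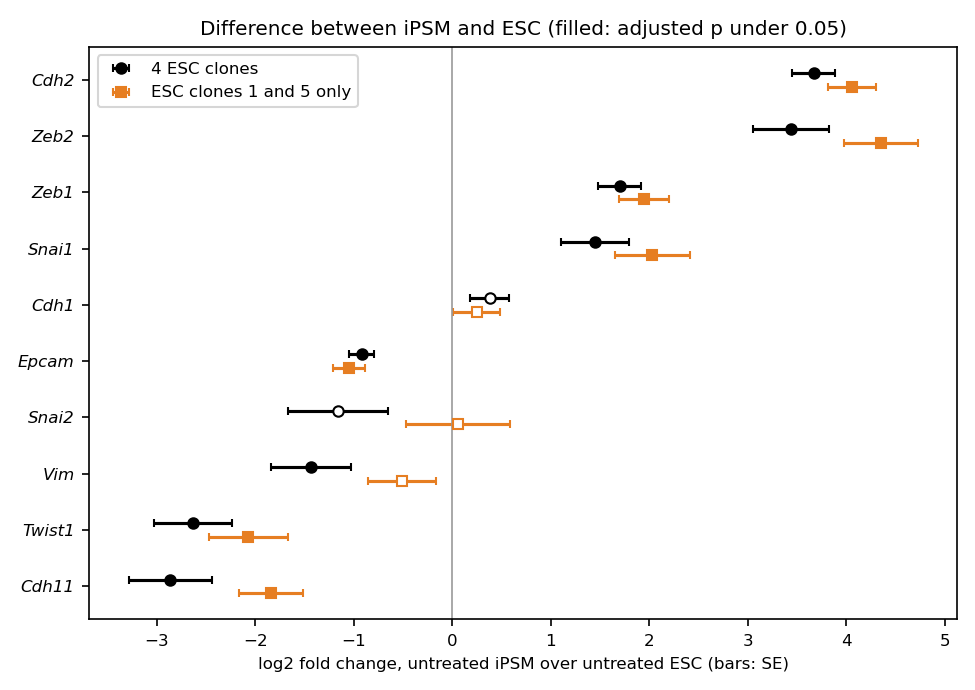
Log2 fold change of untreated iPSM over untreated ESC for each gene, with bars for the SE, over 4 ESC clones (black) and over ESC clones 1 and 5 only (orange), filled where the edgeR adjusted p was under 0.05. Cdh2, Zeb2, Zeb1 and Snai1 lie to the right in both, Epcam, Twist1 and Cdh11 to the left, and Vim is at -1.43 over 4 ESC clones and at -0.51, not called, over clones 1 and 5.

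Snai1 (chromosome 2, 167538195 to 167542814, plus strand, 3 exons) encodes SNAIL, a zinc finger repressor that mouse embryos need to turn down Cdh1 at gastrulation. In untreated iPSM clones it stood at 2.33 and 3.52 CPM (Clock/Bmal1 12 and 20) and 5.27 and 4.21 (Clock/Bmal1DN 7 and 19), against 1.23 and 1.33 CPM in ESC Clock/Bmal1 clones 1 and 7 and 0.625 and 2.25 in Clock/Bmal1DN clones 5 and 6. The groups came close without overlapping. The log2 fold change was 1.45 ± 0.347 (edgeR adjusted p = 0.00208). Over all libraries its counts were low, 92 to 249 in iPSM and 22 to 98 in ESC, and the ranges overlapped, at 2.04 to 5.48 against 0.51 to 2.25 CPM. With ESC clones 1 and 5 alone the log2 fold change was 2.03 and still passed.

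Snai2 (chromosome 16, 14705852 to 14709385, plus strand, 3 exons) encodes SLUG, the second SNAIL family repressor. It was scarce in both cell types, at 11 to 27 counts in an iPSM library and 1 to 95 in an ESC library. Its values in untreated iPSM clones were 0.492 and 0.245 CPM (Clock/Bmal1 12 and 20) and 0.43 and 0.533 (Clock/Bmal1DN 7 and 19), against 0.41 and 0.99 CPM in ESC Clock/Bmal1 clones 1 and 7 and 0.375 and 2.18 in Clock/Bmal1DN clones 5 and 6. The groups overlapped, and the log2 fold change of -1.16 ± 0.511 missed the threshold (edgeR adjusted p = 0.0623). It passed without ESC clone 1 (-1.41, adjusted p = 0.037) and without ESC clone 5 (-1.54, adjusted p = 0.00809), and with ESC clones 1 and 5 alone it was 0.06 (adjusted p = 0.97). The highest ESC values were those of untreated clone 6 and of clone 7, which had the highest fibroblast marker sums, and the lowest were, 0.0232 and 0.0482 CPM, in the control line.

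Zeb1 (chromosome 18, 5591864 to 5775467, plus strand, 8 exons) and Zeb2 (chromosome 2, 44983632 to 45117395, minus strand, 11 exons) encode zinc finger homeodomain repressors. Zeb1 had 37.1 and 47.9 CPM in untreated iPSM Clock/Bmal1 clones 12 and 20 and 72.7 and 60.8 in Clock/Bmal1DN clones 7 and 19, against 13.1 and 14.5 CPM in ESC Clock/Bmal1 clones 1 and 7 and 13.4 and 25.5 in Clock/Bmal1DN clones 5 and 6. Its log2 fold change was 1.70 ± 0.219 (edgeR adjusted p = 8.06e-06). Zeb2, which is active in early mesoderm and neural tissue, had 102 and 103 CPM in untreated iPSM Clock/Bmal1 clones 12 and 20 and 145 and 152 in Clock/Bmal1DN clones 7 and 19, against 5.37 and 12.8 CPM in ESC Clock/Bmal1 clones 1 and 7 and 6.30 and 22.2 in Clock/Bmal1DN clones 5 and 6. Neither gene overlapped between the types over all 10 libraries each. The Zeb2 log2 fold change was 3.44 ± 0.388, a 10.8-fold difference (edgeR adjusted p = 2.2e-06). Both were highest among untreated ESC in clone 6. Over ESC clones 1 and 5 alone the log2 fold changes were 1.95 for Zeb1 and 4.35 for Zeb2, and both passed. Genes on the opposite strand within them held 1815 counts (Zeb1) and 1000.5 counts (Zeb2, among them Zeb2os) over the 20 libraries, against 33260.5 and 65827.5 for the genes themselves.

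Twist1 (chromosome 12, 33957671 to 33959829, plus strand, 2 exons) encodes a bHLH factor of cranial and somite-derived mesenchyme. Untreated iPSM clones had 1.51 and 1.00 CPM (Clock/Bmal1 12 and 20) and 0.835 and 1.03 (Clock/Bmal1DN 7 and 19), against 4.30 and 7.80 CPM in ESC Clock/Bmal1 clones 1 and 7 and 4.53 and 10.4 in Clock/Bmal1DN clones 5 and 6. The groups did not overlap, and over all libraries iPSM stayed at 0.429 to 1.51 CPM and ESC at 3.34 to 10.4. This gave a log2 fold change of -2.63 ± 0.393 (edgeR adjusted p = 3.56e-05), and -2.07 with ESC clones 1 and 5 alone, where it still passed. The ESC control line had 4.50 CPM with dox and 4.79 untreated, beside fibroblast marker sums of 128 and 150.

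**Figure D3:**
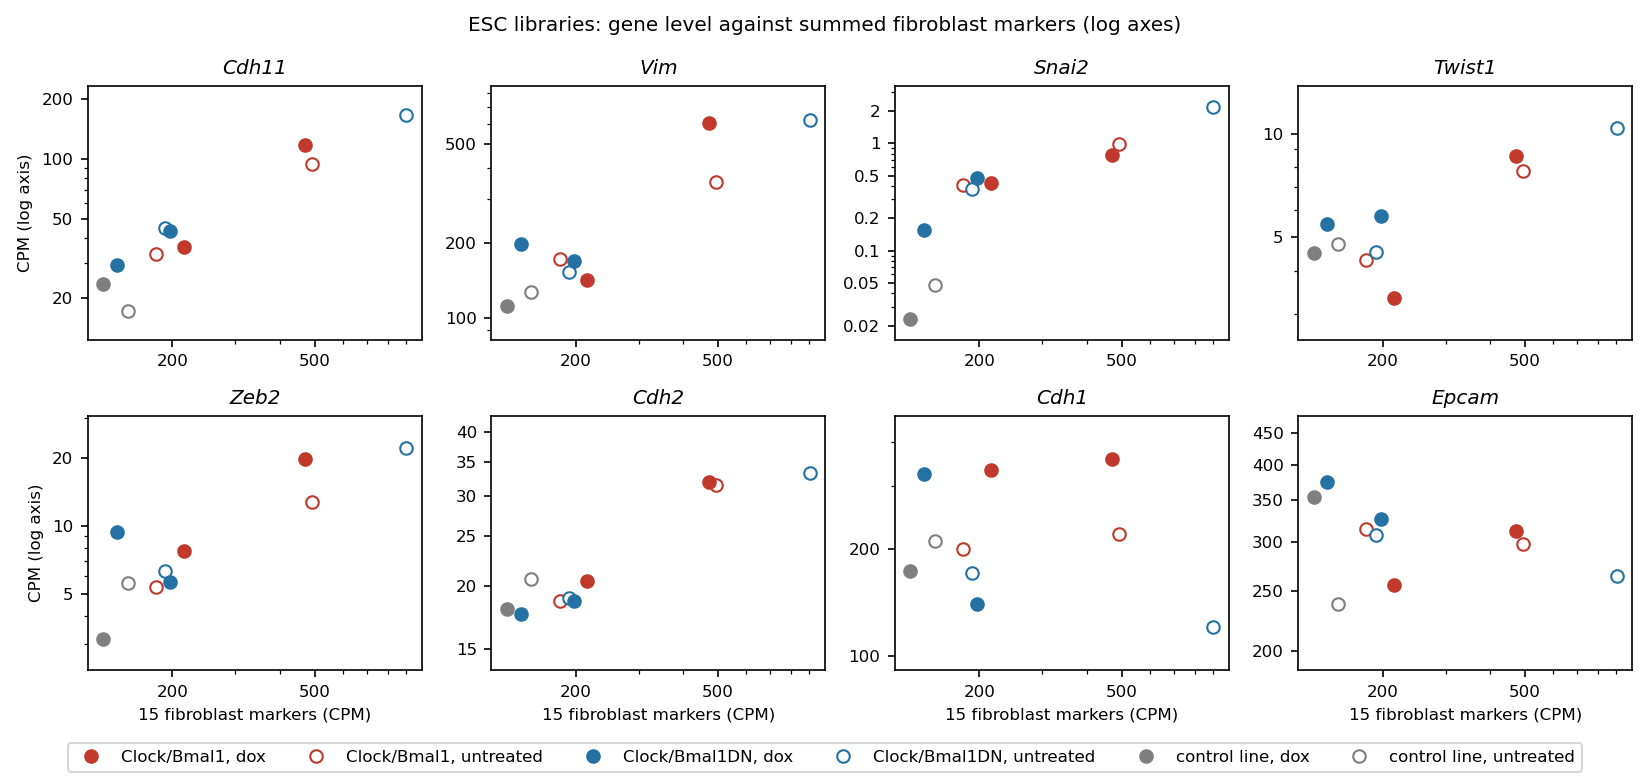
CPM of 8 genes in each ESC library against the summed CPM of 15 fibroblast markers, both on log axes. The 3 libraries at the right (Clock/Bmal1 clone 7 with dox and untreated, Clock/Bmal1DN clone 6 untreated) are the highest for Cdh11, Vim, Snai2, Twist1, Zeb2 and Cdh2, while Cdh1 and Epcam follow no such order.

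Within ESC, then, 6 of the 10 genes (Cdh2, Cdh11, Vim, Snai2, Zeb2 and Twist1) had their 3 highest values in the 3 libraries with the highest fibroblast marker sums. The part of fibroblast-type RNA in these levels was not tested, and the share of all genes with this order was not counted. ESC clones 6 and 7 had the highest values among the 4 untreated ESC clones for Cdh2, Zeb1, Zeb2, Snai1, Cdh11, Twist1 and Vim. For genes that were higher in iPSM (Cdh2, Zeb1, Zeb2, Snai1) the fold change was therefore larger with ESC clones 1 and 5 alone. For Cdh11, Twist1 and Vim it was smaller, while Epcam went to -1.05. These directions follow from choosing clones 1 and 5 after the values were seen, and test no cause. With those clones alone 7 of the 10 genes passed, 4 higher and 3 lower, where 26.4% of 26567 genes passed higher and 25.8% lower.

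Levels of different genes were compared per length, as the deposited reads per kilobase of gene body, scaled to library size (RPKM), which count introns: these make up 97.8% of the Cdh2 body, 93.4% of Cdh1 and 24.6% of Twist1. In iPSM the medians over 10 libraries ran Vim 13.6 RPKM, Epcam 9.82, Cdh1 3.26, Cdh2 1.66, Zeb2 1.12, Snai1 0.885, Twist1 0.459, Zeb1 0.343, Snai2 0.125 and Cdh11 0.0862. Library ranges separated Epcam from Cdh1, Cdh1 from Cdh2 and Zeb1 from Snai2, and the other neighbours overlapped. In ESC the order was Epcam 18.8 RPKM, Vim 17.5, Cdh1 2.80, Twist1 2.21, Cdh11 0.242, Snai1 0.233, Snai2 0.111, Cdh2 0.0829, Zeb1 0.0704 and Zeb2 0.0498. Here the ranges separated Vim from Cdh1 and Twist1 from Cdh11 only. Cdh1 therefore stood above Cdh2 per length of gene body in every library, by 1.54 to 3.27 times in iPSM (median 1.94) and by 11.9 to 60.7 times in ESC (median 32.7). Divided by mRNA length instead, the same counts gave ratios of Cdh1 to Cdh2 of 0.51 to 1.09 in iPSM (median 0.647) and 3.95 to 20.1 in ESC (median 10.9), so which cadherin was more abundant in iPSM depended on the length used, and the lower ratio in iPSM did not.

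The iPSM lines differed among themselves before any dox. Untreated Clock/Bmal1 clones 12 and 20 had less Cdh2 (270.1 and 240.2 CPM) than untreated Clock/Bmal1DN clones (407 and 420.5) and the untreated control line (379). The same clones were also lower than the Clock/Bmal1DN clones in Cdh11, Snai1, Zeb1 and Zeb2, and higher in Epcam, at 185 and 171 against 129 and 145 CPM. In Cdh1, Snai2, Twist1 and Vim the untreated clones of both kinds overlapped. Presomitic mesoderm markers summed to 1030 and 1420 CPM in the untreated Clock/Bmal1 clones, against 1490 and 1590 in the Clock/Bmal1DN clones and 1450 in the control line. These differences are between lines, and were not tested. With so few clones of each kind, values can lie apart by chance. The share of all genes that lie apart between these clones was not counted.

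Dox was given to ask whether raising Clock with Bmal1, or with Bmal1DN, changed the transcriptome within hours. None of the 10 genes passed in any dox comparison, in either cell type. In iPSM with Clock/Bmal1, 0 of the 10 passed where 257 of 24951 genes (1.03%) did, 250 of them higher, and 402 did with clone as a block. In iPSM with Clock/Bmal1DN, where Arntl was at 828 CPM in clone 7 and 143 in clone 19 with dox, 0 of the 10 passed and 1 gene did (0.00401%), and in the difference between the effects of Clock/Bmal1 and Clock/Bmal1DN, 0 passed where 70 did (0.281%), or 143 with clone as a block. In ESC with Clock/Bmal1, 0 of the 10 passed where 95 of 22540 genes (0.421%) did, or 154 with clone as a block. In ESC with Clock/Bmal1DN 0 passed where 1 did (0.00444%), and in the difference between these effects 0 passed where 13 did (0.0577%), or 25 with clone as a block. In the difference between the Clock/Bmal1 effects of iPSM and ESC, 0 of the 10 passed, and neither did any other gene (0% of 26814; 1082 at an unadjusted p under 0.05 by edgeR, and 15 by DESeq2). At an unadjusted p under 0.05 edgeR had none of the 10 in the 3 iPSM comparisons and in Clock/Bmal1 ESC, 2 in Clock/Bmal1DN ESC, 1 in the ESC difference and 1 in the difference between cell types. Of all 22540 genes in ESC, 1685 were under it with Clock/Bmal1, 894 with Clock/Bmal1DN and 1083 in the difference. Of all 24951 genes in iPSM, these numbers were 1388, 174 and 854. DESeq2 called none of the 10 in any of the 7 comparisons.

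**Figure D4:**
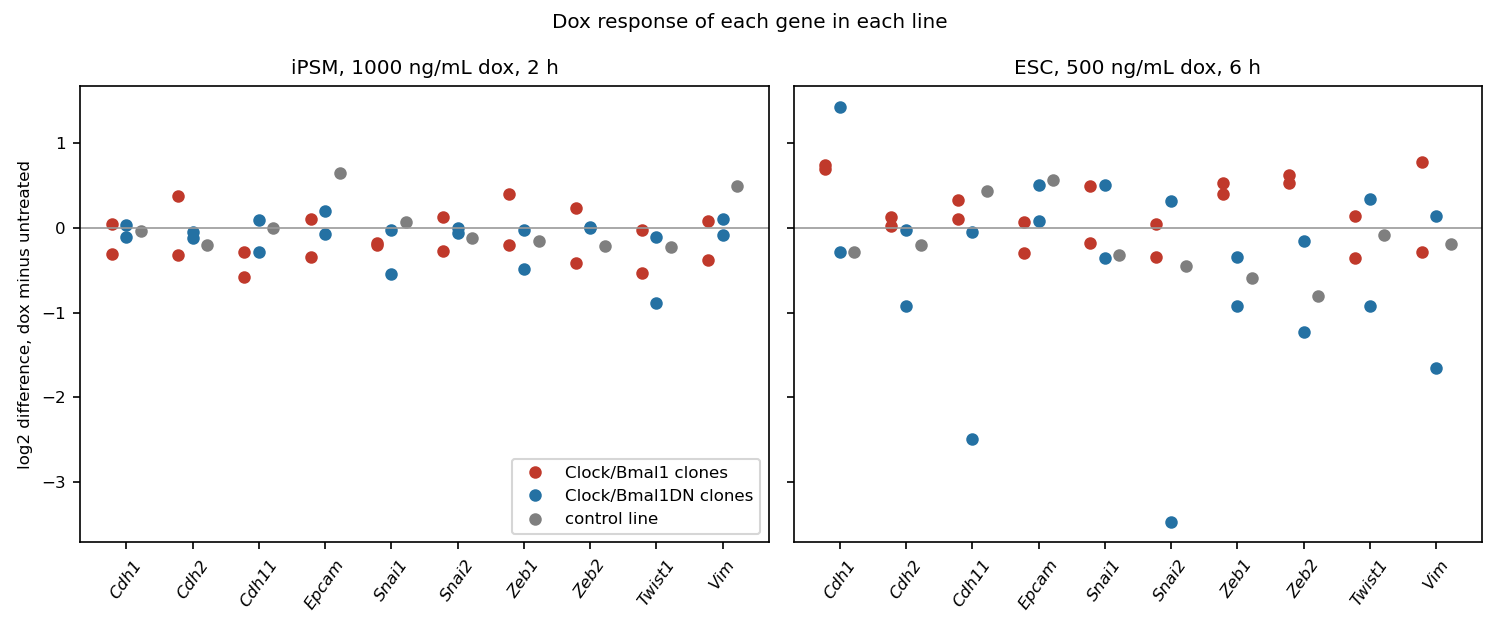
Log2 difference of dox minus untreated CPM, with a prior count of 2 that draws low values towards 0, in each line for each gene, iPSM left and ESC right. In iPSM every Clock/Bmal1 clone lies between -0.58 and 0.40, and in ESC the widest points are those of Clock/Bmal1DN clone 6, at 1.43 for Cdh1 and -3.47 for Snai2.

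In iPSM the dox values stayed near the untreated ones. Cdh2 had 216 and 313 CPM in Clock/Bmal1 clones 12 and 20 with dox, against 270.1 and 240.2 untreated, so 1 clone went down and the other up. Its log2 fold change was 0.07 ± 0.171, with a 95% interval of -0.30 to 0.45 (edgeR adjusted p = 1.0). Cdh1 had 214 and 215 CPM with dox, against 266 and 208 untreated, and a log2 fold change of -0.12 with an interval of -0.47 to 0.22. Cdh11, at 6.06 and 7.35 CPM with dox against 9.08 and 8.97 untreated, was lower in both clones, with a log2 fold change of -0.41 ± 0.202 (interval -0.85 to 0.04, edgeR adjusted p = 1.0). In the control line it was 15.1 CPM with dox and 15.1 untreated. For Snai1, Twist1 and Snai2, which have few counts, the intervals were wider, reaching from -1.25 to 0.98 for Snai2.

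In ESC with Clock/Bmal1, the largest log2 fold change of the 10 genes was that of Cdh1. It had 333 and 357 CPM with dox in clones 1 and 7, against 199.7 and 219.8 untreated, so both treated values were above both untreated ones. The log2 fold change was 0.69 ± 0.333 (95% interval -0.06 to 1.44), with an unadjusted p of 0.0675 and an adjusted p of 0.683 by edgeR, so it was not called. In the control line Cdh1 had 174 CPM with dox and 210.3 untreated, and in iPSM with Clock/Bmal1 its log2 fold change was -0.12. The difference between the effects in iPSM and ESC was -0.86 ± 0.398 (unadjusted p = 0.0471, adjusted p = 1.0, edgeR), across unequal doses and times. Beside this, ESC markers summed to 2080 and 2120 CPM in clones 1 and 7 with dox, against 3020 and 2510 untreated, and presomitic mesoderm markers to 126 and 161, against 45.8 and 86.3. In the presomitic sum Lfng, a Notch glycosyltransferase gene, had 92.5 and 104 CPM with dox, against 13.4 and 14.2 untreated, and it was the 1 of 12 markers tested that passed (list median log2 fold change 0.05). The median log2 fold change of the 12 ESC markers was -0.38. The part of these markers in the Cdh1 values was not tested. Zeb1 and Zeb2 were also higher with dox in both clones, by 0.44 ± 0.309 and 0.56 ± 0.656 on the log2 scale, and neither passed. In the control line, with 1 library each, both were lower with dox. There Zeb1 had 9.65 CPM with dox and 14.5 untreated (log2 difference -0.59), and Zeb2 had 3.18 and 5.61 (-0.81).

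In ESC with Clock/Bmal1DN the clones went apart. Clone 6 had 29.4 CPM of Cdh11 with dox, against 166 untreated, and clone 5 had 43.4 with dox, against 44.8 untreated. Vim was 199 CPM with dox and 626 untreated in clone 6, and 170.1 with dox and 154 untreated in clone 5. Snai2 was 0.156 CPM with dox and 2.18 untreated in clone 6, and 0.478 with dox and 0.375 untreated in clone 5. Cdh1 went the other way in clone 6, with 325 CPM with dox and 121 untreated, while clone 5 had 139.7 with dox and 171 untreated. The fibroblast marker sum moved with clone 6, at 140 CPM with dox and 903 untreated, and was 197 with dox and 191 untreated in clone 5. With clone 5 alone the log2 differences, which hold a prior count of 2, were -0.05 for Cdh11, 0.14 for Vim, 0.32 for Snai2 and -0.29 for Cdh1. Over both clones the log2 fold changes were -1.57 ± 0.722 for Cdh11, -2.04 ± 0.892 for Snai2, -1.12 ± 0.722 for Vim and -0.74 ± 0.311 for Zeb1 (edgeR adjusted p = 0.981 for each). With every gene with a count in the fit, edgeR called Cdh11, Snai2 and Vim lower here (adjusted p = 7.41e-08, 0.0447 and 4.1e-05), and Cdh11 and Vim in the ESC difference, calls that rest on clone 6.

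The other genes of these pathways were counted from 4 lists in untreated iPSM against untreated ESC, where 31.2% of all genes passed higher and 28.8% lower. Among 34 genes of epithelial junctions and identity, 8 were higher, 21 were lower and 5 did not pass (median log2 fold change -0.73). The largest falls were Ovol2, an epithelial zinc finger repressor, at 1.22 ± 0.289 CPM in iPSM and 10.2 ± 1.44 in ESC (log2 fold change -3.06), and Tjp3, a tight junction scaffold, at 2.98 ± 0.773 and 24.0 ± 5.75 (-3.01). Dsp, which encodes the desmosome protein desmoplakin, rose to 189 ± 15.1 CPM in iPSM, against 62.5 ± 23.7 in ESC (1.64), and Marveld2, which encodes the tricellular junction protein tricellulin, rose by 1.39. Occludin (Ocln, 0.64), Tjp1 (0.61) and P-cadherin (Cdh3, 1.04) were among the 8 higher genes too, against 21 lower, and were named after their values were seen. The Ocln groups overlapped. In the untreated control lines Cdh3 had 29.3 CPM in iPSM and 27.8 in ESC. With ESC clones 1 and 5 alone the counts were 5 higher and 19 lower.

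Among 27 genes of mesenchymal matrix and cytoskeleton, 5 were higher, 17 were lower and 5 did not pass (median -1.38). Lox, the collagen cross-linking enzyme, was at 0.0543 ± 0.0499 CPM in iPSM and 121 ± 89.7 in ESC, and S100a4, a calcium-binding protein also known as fibroblast-specific protein, at 0.0828 ± 0.0455 and 108 ± 108 (log2 fold changes -10.94 and -10.29, set by a few counts in iPSM). Wnt5b, a Wnt ligand, rose to 103 ± 18.9 CPM in iPSM, against 5.86 ± 2.71 in ESC (4.19), and Pdgfra, a growth factor receptor of paraxial mesoderm, had 37.9 ± 19.1 and 7.54 ± 6.98 CPM (2.32), with single libraries overlapping. The fibroblast marker sums given above were higher in ESC too, and their part in this list's values was not tested. With ESC clones 1 and 5 alone 5 were higher and 15 lower (median -1.04), and Lox and S100a4 were at -9.78 and -8.70.

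Among 23 other cadherins, protocadherins and catenins, 11 were higher, 3 were lower and 9 did not pass (median 0.83). Cdh20 rose to 16.9 ± 6.52 CPM in iPSM, against 0.347 ± 0.136 in ESC (5.54), and Cdh6 rose to 10.9 ± 2.08, against 1.92 ± 0.634 (2.50), both of them type II cadherins. Pcdh8 (1.47), known as paraxial protocadherin, and Pcdh19 (2.17) were higher as well, named after their values were seen. Pcdh8 was scarce, at 1.17 ± 0.38 CPM in iPSM and 0.433 ± 0.188 in ESC. The Pcdh19 groups overlapped, at 55.1 ± 32.2 and 11 ± 7.05 CPM. Ctnna1, which links cadherins to actin, was lower by little, at 415 ± 9.24 CPM in iPSM and 567 ± 42.7 in ESC (-0.45), and Cdh8 was called lower (-0.87) in groups that overlapped. The list had 12 higher and 2 lower with ESC clones 1 and 5 alone. The Cdh8 call was lost when untreated ESC clone 6 or 7, or untreated iPSM clone 19 or 20, was left out (-0.69 to -0.79), and with the control lines included (-0.40, edgeR adjusted p = 0.224).

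Among 28 regulators of gastrulation and of the transition, 17 were higher, 6 were lower and 5 did not pass (median 1.56). Msgn1 and Tbx6, transcription factors of presomitic mesoderm, had 44.6 ± 21.5 and 45.1 ± 16.9 CPM in iPSM, against 0.0377 ± 0.0312 and 0.286 ± 0.109 in ESC (a log2 fold change of 7.26 for Tbx6), and 5 of the 28 are also in the presomitic mesoderm marker list. Crb2 (3.37) and Epb41l5 (1.78), genes that mouse embryos need for ingression at the streak, were higher, named after their values were seen. Prrx1 was at 0.382 ± 0.0557 CPM in iPSM and 22.7 ± 20.8 in ESC (-5.82), and is also in the fibroblast list, as is Twist2. Over ESC clones 1 and 5 alone Prrx1 was at -4.32, and the list had 19 higher and 5 lower.

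**Figure D5:**
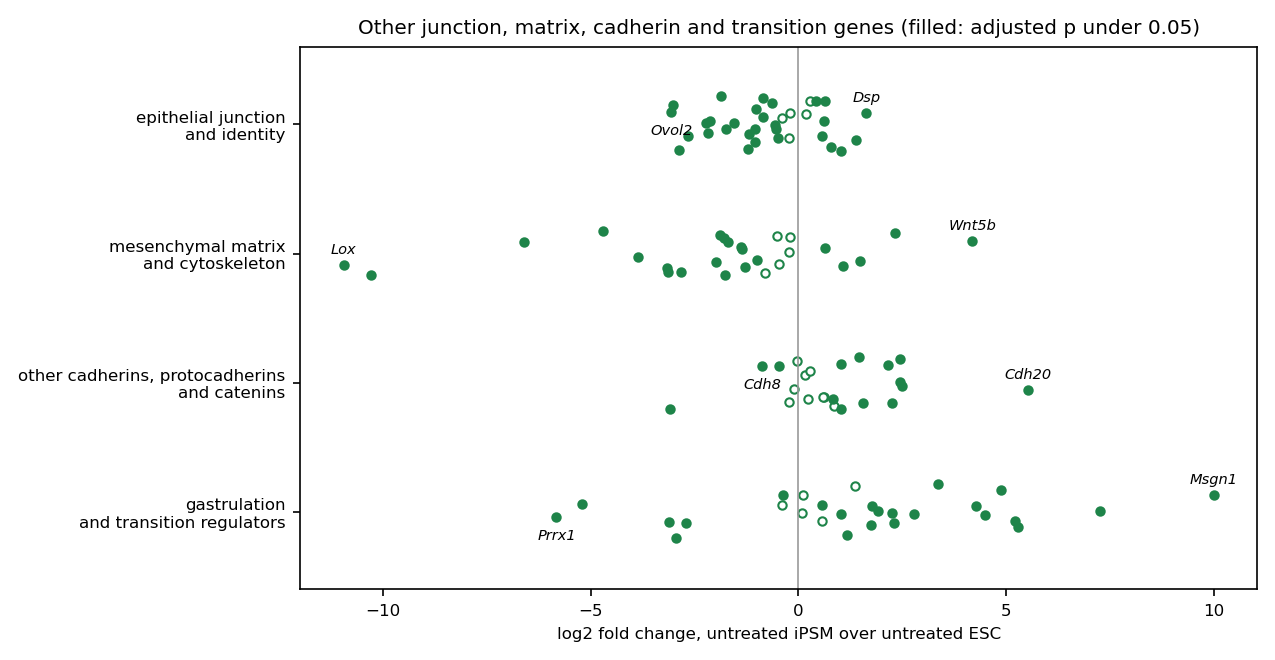
Log2 fold change of untreated iPSM over untreated ESC for each gene of the 4 lists, filled where the edgeR adjusted p was under 0.05, with the strongest rise and fall among the genes named in the text labelled for each list. Cadherins and regulators lie mostly to the right (medians 0.83 and 1.56), and epithelial and mesenchymal genes mostly to the left (medians -0.73 and -1.38).

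In the dox comparisons 3 genes of these lists passed, all in iPSM with Clock/Bmal1, where 1.03% of all genes did. They were 1 of 34 epithelial genes tested, 0 of 26 mesenchymal genes, 1 of 23 cadherins and catenins and 1 of 28 regulators. Snai3, a further SNAIL family member, had 5.51 and 9.86 CPM with dox in clones 12 and 20, against 1.55 and 1.96 untreated (log2 fold change 2.15 ± 0.319, 4.45-fold, edgeR adjusted p = 0.00695). Both treated values were above the untreated clones and the other iPSM libraries. Without clone 20 with dox it was 1.66 (adjusted p = 0.0876). In ESC, where Snai3 is more abundant, the same clones comparison gave 20.3 and 22.7 CPM with dox in clones 1 and 7, against 13.3 and 11.9 untreated, and did not pass. Ovol1, an epithelial repressor, had 1.13 and 2.51 CPM with dox, against 0.36 and 0.111 untreated (2.94 ± 0.576, adjusted p = 0.0369), and lost its call without clone 20 with dox (2.24, adjusted p = 0.546) or without clone 20 untreated (2.36, adjusted p = 0.106). Pcdh18 had 30.7 and 30.1 CPM with dox, against 46.8 and 56.1 untreated (-0.74 ± 0.15, adjusted p = 0.0455), and missed the threshold without clone 12 with dox (adjusted p = 0.186) and without either clone 20 library (0.405 with dox left out, 0.0898 with untreated left out).

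The genes whose log2 CPM followed the cadherins most closely over the 20 libraries were found among 15492 genes, by Pearson's r as a description. For Cdh2 they were Gpc6 (0.997), Dach1 (0.996) and Gm7298 (0.995), and for Cdh1 Epg5 (0.917), Pelp1 (0.897) and Sec23ip (0.891). The points share the cell type split, so for Cdh2 such values mostly restate which genes differ between iPSM and ESC.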

How the data were processed

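Total RNA from the 20 libraries was sequenced as 101-base paired-end reads from stranded libraries, per the labels' protocols. bcl2fastq, STAR 2.7.2a, HOMER and the mm10 build are named in the submitters' processing notes. The authors deposited, per the file headers, 2 tables of gene-body values, 1 for each cell type, holding an RPKM value and an estimated count of reads for each gene and library. Of the deposited counts, 18.1% end in 0.5, and the authors' estimated counts were rounded to whole numbers before testing. Whether strand was used in counting is not given in the sources used here. Introns are part of the gene body, so unspliced RNA is counted. The tables have the same rows, and RPKM was set across them as deposited.

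The counts were tested with edgeR 4.0.16 in R 4.3.3 (TMM scaling, filterByExpr, quasi-likelihood, two-sided), with Benjamini-Hochberg adjustment over all genes tested and a threshold of 0.05. iPSM against ESC and the difference of dox effects between them used 1 fit of 12 groups, and dox comparisons a fit of 6 groups per cell type. CPM is on TMM library sizes over the 20 libraries. The test was run on simulated counts first. The submitters' labels name clones, not cultures, so p-values measure the spread between 2 clones per group. Dox and untreated libraries with the same number are the same clone by the labels, and their deviations correlated at 0.616 and 0.296 (Clock/Bmal1, ESC and iPSM) and at -0.075 and 0.237 (Clock/Bmal1DN, ESC and iPSM). Clone as a block was therefore an alternative, with DESeq2 1.42.0, DESeq2's size factors in edgeR, no low-count filter, fits without or with the control lines, and each library left out. ESC clones 1 and 5 only, and clones 5 and 6 alone, were added after seeing the data. The 10 genes were always named. Of each list the text names the 2 genes that rose most and the 2 that fell most between cell types, given that they passed and averaged 1 CPM or more in 1 cell type, and up to 4 genes per dox comparison that passed; 1 gene that this rule names is not reported here. The genes and lists were chosen with earlier results of these data known.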

Additional observations from a re-analysis of the deposited data

Results flagged for a closer look

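Zeb1 in untreated ESC clones was flagged because 1 of the 4 libraries lay far from the others: Clock/Bmal1DN clone 6 had 25.5 CPM, against 13.1, 13.4 and 14.5 CPM in clones 1, 5 and 7. Of 20 sets of 4 untreated clones examined (10 genes in 2 cell types) this was the 1 flagged, and chance flags about 1 in 20 independent sets. These sets are not independent, since the genes share their libraries. In ESC, untreated clone 6 was the extreme value for each of the 10 genes, at a gap of 0.127 (Cdh2) to 0.884 (Zeb1) of the range. The same library had the highest fibroblast marker sum of all 20, 903 CPM. With dox, clone 6 had 13.4 CPM of Zeb1.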

How the results depend on the processing

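Among 1141 values of single genes under alternatives, 1119 kept their call, 14 lost it, 8 gained it and none that was called changed sign; 99 changed sign among values never called. With every gene with a count in the fit, the counts of genes called were 540 (main 95) for Clock/Bmal1 ESC, 467 (1) for Clock/Bmal1DN ESC, 411 (13) for the ESC difference, 601 (257) for Clock/Bmal1 iPSM, 8 (1) for Clock/Bmal1DN iPSM, 271 (70) for the iPSM difference and 89 (0) for iPSM minus ESC; of the 10 genes it called 3 in Clock/Bmal1DN ESC and 2 in the ESC difference. DESeq2 called 359, 6 and 133 in the 3 ESC comparisons, 162 in the iPSM difference and 15 in iPSM minus ESC. The replicate block of clone gave 154 for Clock/Bmal1 ESC, 25 for the ESC difference, 402 for Clock/Bmal1 iPSM, 143 for the iPSM difference and 1 for iPSM minus ESC; it called none of the 10 genes in a dox comparison. Leaving out 1 library in turn gave 14508 to 15670 genes called in iPSM against ESC (7 to 9 of the 10 genes), 7 to 90 in Clock/Bmal1 ESC, 0 to 2 in Clock/Bmal1DN ESC, 0 to 8 in the ESC difference, 81 to 657 in Clock/Bmal1 iPSM, 1 to 2 in Clock/Bmal1DN iPSM, 8 to 158 in the iPSM difference and 0 in iPSM minus ESC; of the 10 genes it called 0 in each dox comparison. In Clock/Bmal1 ESC the count was 9 without untreated clone 1, 7 without untreated clone 7 and 23 without clone 1 with dox, and in Clock/Bmal1 iPSM it was 657 without untreated clone 12 and 81 without clone 20 with dox. For Clock/Bmal1DN it was 0 in ESC without either untreated clone, and 2 without clone 5 with dox in ESC or clone 19 with dox in iPSM. In the ESC difference every one of the 8 omissions moved it by over 1.5 times, and in the iPSM difference 7 of 8 did, all but that of untreated clone 20. By library totals in place of TMM, the mean Epcam of untreated ESC clones was 273 CPM. The cause of these shifts was not tested. Snai2, Twist1 and Snai1 have the fewest counts, which limits how small a change in them could be seen.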
